A study of Mus musculus with 14 samples.

Results

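The circadian clock of the mouse ventricle was described here through 10 genes chosen by name: Arntl, Clock and Npas2, which encode the activators of the clock, Per2, Per3 and Ciart, which encode repressors, Nr1d1 and Nr1d2, which encode the REV-ERB nuclear receptors, and Dbp and Tef, which encode output transcription factors. All 10 were found among the 22136 genes that the Rad knockout and the WT tables share, and all 10 passed the filter on low counts. The tables hold read counts from 14 polyA-enriched libraries of heart ventricle in 4 groups: 4 libraries labelled Rad knockout (Rad KO) with transverse aortic constriction (TAC), 3 labelled Rad KO with sham surgery, 4 WT with TAC and 3 WT with sham surgery. TAC narrows the aorta and loads the left ventricle with pressure, and Rad, the product of Rrad, is a small GTPase known to inhibit L-type calcium channels of heart muscle. The labels of all 4 groups place TAC 4 weeks ahead of tamoxifen, and hearts were taken over 2 months after TAC and over 1 month after the knockout. The sources used here do not give the strain, the age, the driver of the inducible knockout, the hour of tissue collection or whether each library is a separate animal. The p-values therefore measure the spread between these libraries, which may be technical.

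The clock of mammalian cells is a feedback loop of transcription. BMAL1, the product of Arntl, pairs with CLOCK or its relative NPAS2 and binds E-boxes in the genes of the PER and CRY proteins, of the REV-ERB receptors and of Dbp, and PER and CRY proteins then repress the pair. REV-ERB receptors repress Arntl and Npas2 through ROR elements, so that in the mouse heart Arntl RNA is high at the time of day when Dbp RNA is low. DBP and TEF act on D-box elements of further genes, and cardiomyocytes are known to run such a clock of their own, with metabolic genes among its outputs.

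Promoter sequence of the members was read to show where the letters of these elements lie, since each arm of the loop is known to act through a different one. RefSeq windows from 250 bases before to 50 bases after a gene's start (GRCm38.p6) were at hand for 9 of the 10 members, in 13 windows of 300 bases. The searched letters, on both strands, were CACGTG for the E-box, CACGTT for a variant E-box, TTATGTAA for the D-box and TAGGTCA for the core of the ROR element. CACGTG reads the same on both strands, and no position can match both CACGTG and CACGTT. Of all 32851 windows in the table, 7.15% held CACGTG, 4.68% CACGTT, 0.938% TTATGTAA and 2.61% TAGGTCA. The windows below are printed 5′ to 3′ on the gene's strand, with each match in capitals. They are Arntl at chr7:113207261-113207560 on the plus strand, Per3 at chr4:151044616-151044915 on the minus strand, Ciart at chr3:95882179-95882478 on the minus strand, Tef at chr15:81802423-81802722 on the plus strand and Nr1d1 at chr11:98775328-98775627 on the minus strand.
Arntl: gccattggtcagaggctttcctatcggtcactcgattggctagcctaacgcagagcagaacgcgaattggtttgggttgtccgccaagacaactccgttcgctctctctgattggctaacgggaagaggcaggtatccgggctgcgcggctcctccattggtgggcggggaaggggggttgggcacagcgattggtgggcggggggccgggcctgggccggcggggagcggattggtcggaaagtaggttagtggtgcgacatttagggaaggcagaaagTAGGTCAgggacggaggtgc
Per3: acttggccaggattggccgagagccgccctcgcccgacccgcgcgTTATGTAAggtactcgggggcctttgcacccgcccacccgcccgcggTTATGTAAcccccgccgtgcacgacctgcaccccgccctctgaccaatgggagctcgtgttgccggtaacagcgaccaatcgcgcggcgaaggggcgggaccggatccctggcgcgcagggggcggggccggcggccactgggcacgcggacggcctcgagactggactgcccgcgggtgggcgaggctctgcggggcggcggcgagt
Ciart: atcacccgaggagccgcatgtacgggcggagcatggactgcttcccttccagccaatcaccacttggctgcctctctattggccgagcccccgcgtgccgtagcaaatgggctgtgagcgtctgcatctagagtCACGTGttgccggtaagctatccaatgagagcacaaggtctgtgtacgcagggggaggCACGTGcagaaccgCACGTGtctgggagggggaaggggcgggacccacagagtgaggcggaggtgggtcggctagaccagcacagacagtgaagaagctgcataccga
Tef: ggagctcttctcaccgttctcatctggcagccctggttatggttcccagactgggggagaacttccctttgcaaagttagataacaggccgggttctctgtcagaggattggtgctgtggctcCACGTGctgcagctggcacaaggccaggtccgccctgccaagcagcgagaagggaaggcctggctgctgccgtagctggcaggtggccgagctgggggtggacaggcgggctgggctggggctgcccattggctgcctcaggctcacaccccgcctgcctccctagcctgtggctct
Nr1d1: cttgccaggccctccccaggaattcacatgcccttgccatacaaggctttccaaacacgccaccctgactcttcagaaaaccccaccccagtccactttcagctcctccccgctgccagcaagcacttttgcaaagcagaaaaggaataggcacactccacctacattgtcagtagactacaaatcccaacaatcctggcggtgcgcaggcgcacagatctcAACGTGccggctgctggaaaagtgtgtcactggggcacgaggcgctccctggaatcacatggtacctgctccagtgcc
The Ciart window held 3 matches to CACGTG, which began 116, 58 and 44 bases before the start. The Per3 window held 2 matches to TTATGTAA, at 205 and 158 bases before the start. Each of the 2 Tef windows held 1 CACGTG, and the Nr1d1 window held 1 CACGTT, read there from the other strand. The later of the 2 Arntl windows held 1 TAGGTCA past the start. The Clock, Npas2, Nr1d2 and Dbp windows held none of these letters. A match is a description of the letters and not a site of binding.

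Total counts ran from 14546176 to 17652010 in 13 libraries and reached 23314792 in WT sham 1, and 8 ventricular cardiomyocyte markers summed to between 45267 and 62409 counts per 1000000 (CPM, scaled by TMM over the 14 libraries), against at most 1718 CPM for 4 atrial markers. Rrad did not set the libraries labelled Rad KO apart from WT. In Rad KO it had 119 to 242 CPM in TAC (mean 181) and 162 to 228 CPM in sham (mean 191). In WT it had 128 to 242 CPM in TAC (mean 200) and 199 to 229 CPM in sham (mean 214). The means were lower in Rad KO but the ranges overlapped, so these groups are named by their labels only. Esr1, which encodes an estrogen receptor, split the sham libraries within each label: it had 1.12 CPM in Rad KO sham 2 against 1933 and 2019 CPM in the other Rad KO sham libraries, and 1503 and 2224 CPM in WT sham 2 and 3 against 1.27 CPM in WT sham 1. In TAC it had 338 to 2461 CPM in libraries labelled Rad KO and 0.556 to 1.61 CPM in WT. Each result below that changed without Rad KO sham 2, WT sham 2 and WT sham 3 is given with and without them.

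Per length of gene, the members differed widely in level. Median FPKM over the 14 libraries was 48.2 for Nr1d1, 34.6 for Dbp, 23.0 for Nr1d2 and 18.6 for Tef. It was 3.90 for Clock, 2.22 for Ciart, 2.12 for Per3, 1.66 for Per2, 0.742 for Arntl and 0.453 for Npas2. Neighbours in this order overlapped between libraries in each case except Tef and Clock, whose ranges were 9.78 to 27.1 and 2.52 to 4.81 FPKM. Npas2 therefore rested on 18 to 155 reads a library and Arntl on 26 to 302, whereas Nr1d1 had 1467 to 3708.

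Arntl separated the TAC libraries from each other more than from sham. It had 13.6, 3.65, 8.87 and 3.15 CPM in Rad KO TAC 1 to 4, against 4.82, 6.25 and 5.36 CPM in Rad KO sham 1 to 3. WT TAC 1 to 4 had 13.2, 16.2, 10.6 and 1.71 CPM, against 4.15, 5.89 and 5.14 CPM in WT sham 1 to 3. Rad KO TAC 1 and 3 and WT TAC 1, 2 and 3 lay above all 6 sham libraries, and Rad KO TAC 2 and 4 and WT TAC 4 lay below all 6. Across the 8 TAC libraries the highest value was 9.45-fold the lowest, and across the 6 sham libraries 1.51-fold. In bulk tissue, fewer cells of a type and less RNA per cell cannot be told apart.

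The partners of BMAL1 divided the TAC libraries in the same way. Npas2 had 3.71, 1.17, 3.40 and 1.58 CPM in Rad KO TAC 1 to 4, against 1.63, 2.50 and 1.68 CPM in Rad KO sham 1 to 3. In WT it had 4.52, 8.30, 4.45 and 1.32 CPM in TAC 1 to 4, against 2.05, 1.93 and 2.32 CPM in sham 1 to 3. The same 5 TAC libraries were above every sham library and the same 3 below. Clock, the most abundant activator transcript, had 59.7, 45.5, 62.4 and 43.3 CPM in Rad KO TAC 1 to 4, against 63.3, 52.9 and 54.4 CPM in Rad KO sham 1 to 3. In WT it had 65.7, 66.8, 55.2 and 34.6 CPM in TAC 1 to 4, against 50.7, 49.0 and 53.4 CPM in sham 1 to 3. Its spread was narrower than that of Arntl, at 1.93-fold over TAC libraries and 1.29-fold over sham libraries, and Rad KO TAC 1 and 3 were not above Rad KO sham 1.

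The output factor Dbp ran the other way. It had 41.9, 121, 65.0 and 118 CPM in Rad KO TAC 1 to 4, against 93.5, 125 and 101 CPM in Rad KO sham 1 to 3. In WT it had 48.5, 41.9, 60.6 and 215 CPM in TAC 1 to 4, against 124, 108 and 109.8 CPM in sham 1 to 3. The 5 TAC libraries with high Arntl had less Dbp than any sham library, WT TAC 4 had more than any other library, and Rad KO TAC 2 and 4 lay within the sham range. Dbp spanned 5.14-fold over TAC libraries and 1.34-fold over sham libraries.

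Tef, which encodes a relative of DBP, had 90.9, 174, 123 and 179 CPM in Rad KO TAC 1 to 4, against 198, 179 and 165 CPM in Rad KO sham 1 to 3. For WT, the values were 146, 77.9, 105 and 214 CPM in TAC 1 to 4, against 148, 130.2 and 141 CPM in sham 1 to 3. WT TAC 4 was the highest library and WT TAC 2 the lowest. Tef also overlaps Gm17597, an antisense gene, over 193 bases, and with the strand of counting not stated, reads of overlapping genes cannot be told apart. The same holds for Dbp, which shares 737 bases with Sphk2 on the opposite strand (17.0 to 25.0 CPM), and for Ciart, which shares 3749 bases with the antisense gene C920021L13Rik (0.342 to 1.22 CPM).

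Among the repressors, Per3 had 7.98, 24.2, 15.4 and 23.1 CPM in Rad KO TAC 1 to 4, against 26.1, 21.7 and 20.5 CPM in Rad KO sham 1 to 3. Counterparts in WT were 14.8, 7.13, 13.3 and 27.2 CPM in TAC 1 to 4, against 20.4, 19.4 and 24.7 CPM in sham 1 to 3. The 5 TAC libraries high in Arntl were below every sham library in Per3, as they were in Dbp. Per3 lies within Camta1 on the same strand over 41014 bases, and Camta1 had 135 to 242 CPM.

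Per2 and Ciart were the 2 members that also varied between sham libraries. Per2 had 6.59, 19.0, 9.97 and 23.1 CPM in Rad KO TAC 1 to 4, against 22.2, 14.02 and 8.79 CPM in Rad KO sham 1 to 3. WT levels were 9.57, 3.16, 9.01 and 14.4 CPM in TAC 1 to 4, against 10.5, 8.89 and 8.34 CPM in sham 1 to 3. The Per2 ranges of TAC and sham overlapped in both labels, and sham libraries alone spanned 2.66-fold. Ciart, whose product CHRONO represses the CLOCK and BMAL1 pair, had 3.83, 14.2, 4.07 and 11.8 CPM in Rad KO TAC 1 to 4, against 10.3, 10.01 and 5.36 CPM in Rad KO sham 1 to 3. WT libraries held 2.82, 3.11, 4.72 and 16.3 CPM in TAC 1 to 4, against 7.78, 3.91 and 4.01 CPM in sham 1 to 3. Rad KO TAC 2 and 4 and WT TAC 4 had more Ciart than any sham library.

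**Figure D1:**
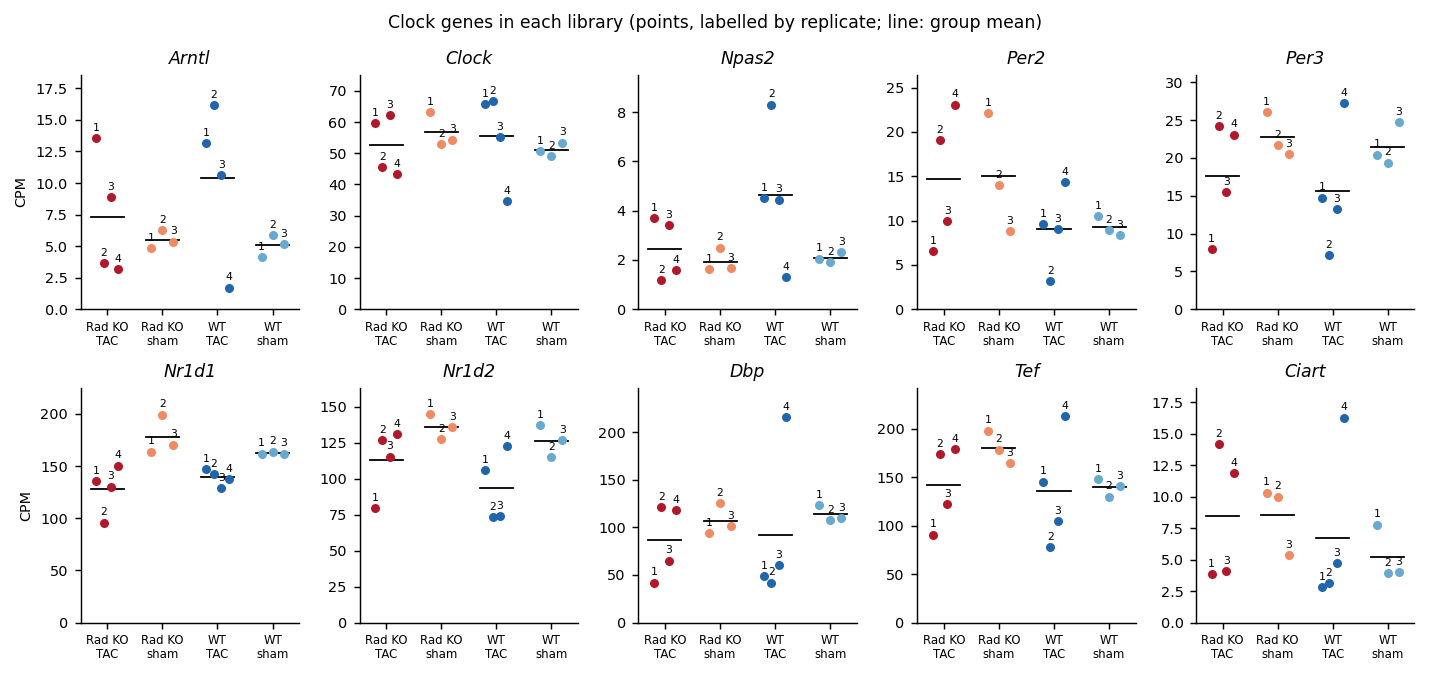
Level of each of the 10 members (CPM, linear axes from 0) in every library, with Rad KO TAC, Rad KO sham, WT TAC and WT sham from left to right; points carry the replicate number and lines are group means. TAC points of Arntl spread to both sides of the sham points. Those of Dbp lie below or among the sham points except WT TAC 4. WT TAC 4 is at 1.71 CPM of Arntl and 215 CPM of Dbp, whereas all 8 TAC points of Nr1d1 lie below its 6 sham points.

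The REV-ERB genes differed from each other. Nr1d2 had 79.6, 127, 115 and 131 CPM in Rad KO TAC 1 to 4, against 145, 128 and 136 CPM in Rad KO sham 1 to 3. Values in WT were 106, 73.1, 73.9 and 123 CPM in TAC 1 to 4, against 137, 115 and 127 CPM in sham 1 to 3. Among TAC libraries the 5 high in Arntl were again the lowest, and Rad KO TAC 4 and WT TAC 4 lay within the sham range of their label. Nr1d1 had 136, 95.7, 130.3 and 150.5 CPM in Rad KO TAC 1 to 4, against 164, 199 and 170.5 CPM in Rad KO sham 1 to 3. WT hearts gave 147, 142, 129 and 138 CPM in TAC 1 to 4, against 162, 164 and 162 CPM in sham 1 to 3. Every TAC library had less Nr1d1 than every sham library, on both sides of the division that the other members made, and its lowest value was in Rad KO TAC 2, a library low in Arntl.

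The size of this spread was set beside all 14731 genes tested in the 14 libraries. After the group means were removed, the within-group SD of log2(CPM + 1) placed 7 of the 10 members in the top 10% of genes, from Arntl (SD 0.83, percentile 99.5) to Tef (SD 0.43, percentile 95.2). Clock and Nr1d2 stood at percentiles 78.0 and 76.7, and Nr1d1 at 38.9. Over TAC libraries alone the median percentile of the members was 98.8, and over sham libraries alone it was 54.7, with Per2 and Ciart the only members in the top 10% in sham. The SD was larger in TAC than in sham within both labels for 10 of 10 members, against 43.7% of all genes. The ratio of the TAC to the sham SD had a median of 3.70 over the members and 1.29 over all genes, and was 5.63 for Arntl, 5.40 for Dbp, 4.71 for Tef and 1.94 for Nr1d1. The comparison of TAC with sham spread was chosen after the values had been seen and is a description with no test.

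**Figure D2:**
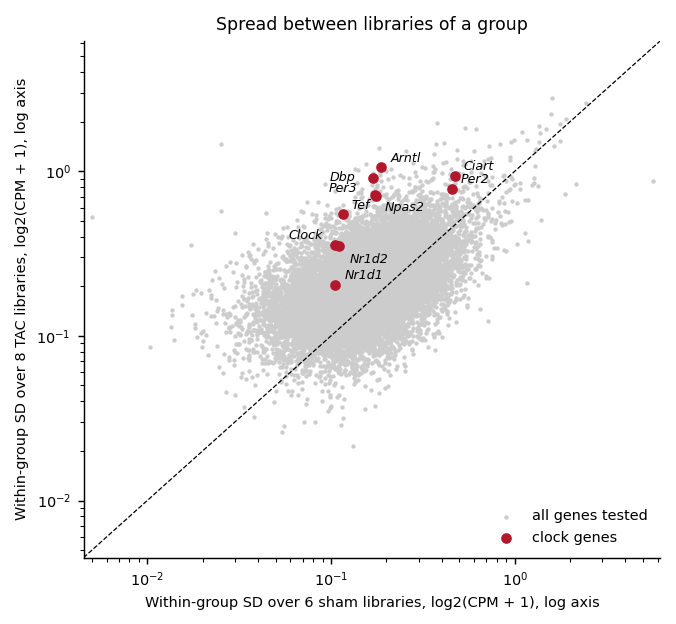
Within-group SD of log2(CPM + 1) over the 8 TAC libraries (vertical, log axis) against the 6 sham libraries (horizontal, log axis) for all 14731 genes tested (grey) and the 10 members (red); the dashed line marks equal SD. All 10 members lie above the line, with Arntl at 1.06 in TAC and 0.19 in sham.

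Libraries were then ordered by a single difference, the mean log2(CPM + 1) of Arntl, Clock and Npas2 minus that of the other 7 members. In Rad KO TAC 1 to 4 it was -0.81, -2.88, -1.44 and -2.97, against -2.62, -2.38 and -2.27 in Rad KO sham 1 to 3. In WT TAC 1 to 4 it was -1.04, -0.13, -1.15 and -3.46, against -2.45, -2.10 and -2.13 in WT sham 1 to 3. The 6 sham libraries thus lay within 0.52 of each other, inside the range of 3.33 covered by the TAC libraries. WT TAC 2 stood at one end and WT TAC 4 at the other, and both labels had TAC libraries on each side of sham. Group means were -2.03 ± 1.07 in Rad KO TAC (SD, n = 4), -2.43 ± 0.18 in Rad KO sham (SD, n = 3), -1.45 ± 1.42 in WT TAC (SD, n = 4) and -2.23 ± 0.20 in WT sham (SD, n = 3), and no test was made of this score.

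**Figure D3:**
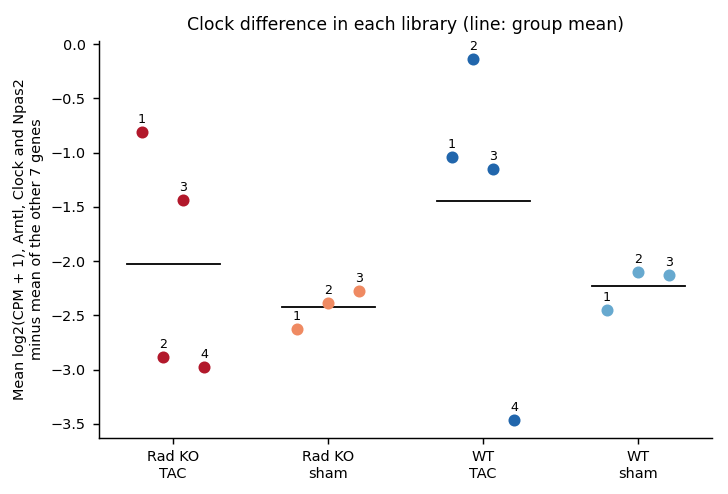
Mean log2(CPM + 1) of Arntl, Clock and Npas2 minus the mean of the other 7 members in each library (vertical axis), by group, with replicate numbers beside the points and lines at the group means. Sham libraries fall between -2.62 and -2.10, and TAC libraries between -3.46 and -0.13.

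The TAC libraries, though not the sham libraries, kept this order in the ratio of Dbp to Arntl taken from the deposited FPKM values, which are per length of gene and rest on the same reads. The ratio was 7.76, 83.2, 18.4 and 94.4 in Rad KO TAC 1 to 4, against 48.8, 50.2 and 47.5 in Rad KO sham 1 to 3. It was 9.24, 6.51, 14.3 and 316 in WT TAC 1 to 4, against 74.9, 45.9 and 53.7 in WT sham 1 to 3. The ratio spanned 48.6-fold over TAC libraries and 1.63-fold over sham libraries. Libraries from the ends of this order were then set against the sham range of their own label. The order was made from these same members, so the counts follow in part from that choice and carry no test. WT TAC 2 had 3 of 3 activators above and 7 of 7 other members below, where 32.2% of all genes were above and 31.9% below. WT TAC 4 had 3 of 3 activators below, 5 of 7 other members above, Nr1d2 within and Nr1d1 below (29.6% of all genes above, 31.9% below). Rad KO TAC 2 had 3 of 3 activators below, Ciart above and Nr1d1 and Nr1d2 below (33.1% of all genes above, 32% below). Rad KO TAC 4 had 3 of 3 activators below, Per2 and Ciart above and Nr1d1 below (27.2% of all genes above, 27.6% below).

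Other properties of the libraries were read along this order, and their part in it was not tested. The mitochondrial share of counts was 22.0%, 21.2%, 20.8% and 20.1% in Rad KO TAC 1 to 4 and 21.2%, 19.0%, 19.4% and 18.2% in WT TAC 1 to 4. It was 24.2% to 28.4% in Rad KO sham and 20.1% to 22.7% in WT sham. Nppb, a marker of load on the ventricle, had 261, 605, 297 and 315 CPM in Rad KO TAC 1 to 4. WT TAC 1 to 4 had 451, 783, 1130.3 and 237 CPM of it, and the sham libraries 47.7 to 119 CPM. In WT, TAC 4 thus had the least Nppb and the least Arntl, whereas in Rad KO the library with the least Nppb had the most Arntl. Summed markers of 5 fibroblast genes were 780.3 to 1449 CPM in Rad KO TAC, 654 to 883 CPM in Rad KO sham, 852 to 1272 CPM in WT TAC and 604 to 921 CPM in WT sham. The 5 mural cell markers summed to 579 to 1474 CPM in Rad KO TAC, 1230.3 to 1848 CPM in Rad KO sham, 597 to 1017 CPM in WT TAC and 888 to 1430.01 CPM in WT sham. The 4 genes read as atrial markers, Myl4, Myl7, Sln and Nppa, had a higher sum in every TAC than in every sham library. This sum was 151 to 1355 CPM in Rad KO TAC and 28.6 to 75.2 CPM in Rad KO sham. For WT, the sum was 250.4 to 1718 CPM in TAC and 43.4 to 72.9 CPM in sham. The sum does not tell which of the 4 genes differed, and a difference in atrial tissue was not tested.

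Members were next compared in pairs across the 14 libraries, in 45 pairs of log2(CPM + 1) with permutation tests of 100000 resamples, two-sided and adjusted by Benjamini-Hochberg over the 45. Of these, 34 had an adjusted p under 0.05 by Pearson's r and 34 by Spearman's rho. Over all members, 22 of 24 pairs within an arm (activators with activators, or other members with each other) had a positive r. Between the arms, 20 of 21 pairs had a negative r. With Nr1d1 set aside, a choice not planned ahead, all 18 pairs within an arm had a positive r, from 0.57 to 0.93, and 18 passed. All 18 pairs between the arms had a negative r, from -0.96 to -0.39, and 16 passed. The 9 pairs with Nr1d1 had r between -0.12 and 0.32, and 0 passed by r, nor had any a permutation p under 0.05 before adjustment. By rho 1 passed, Nr1d1 with Nr1d2 (rho 0.58, permutation p = 0.0316, adjusted 0.0418).

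Arntl and Dbp gave the most negative r, -0.96 (permutation p = 1e-05, the smallest that these resamples can give, adjusted 0.00011), with rho -0.82 (permutation p = 0.00057, adjusted 0.00214). Without the 2 libraries farthest from the median of Arntl, r was -0.93. Within labels, r was -0.89 in Rad KO (7 libraries, exact permutation p = 0.00873, adjusted 0.0327) and -0.996 in WT (7 libraries, exact permutation p = 0.0002, adjusted 0.00893). With the group means removed it was -0.97 (adjusted permutation p = 0.0143). Within the 8 TAC libraries it was -0.997 and within the 6 sham libraries 0.19, both with label means removed and described with no test. The relation between Arntl and Dbp therefore rested on the TAC libraries.

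**Figure D4:**
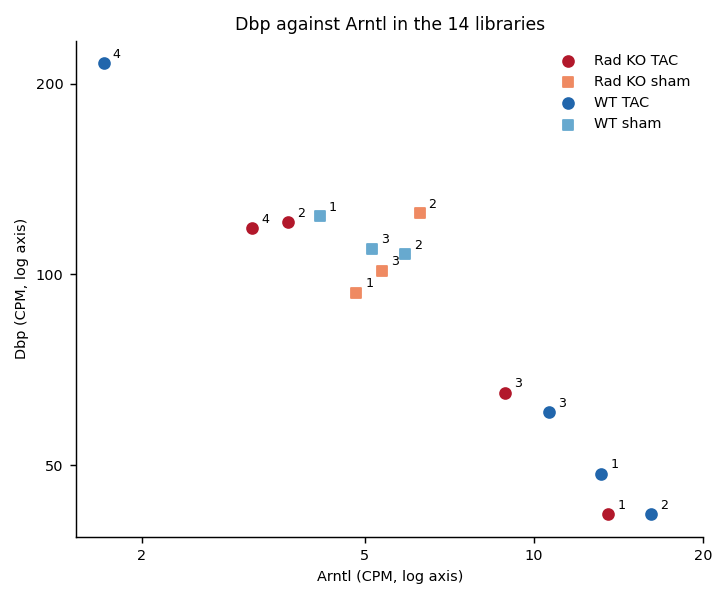
Dbp (CPM, log axis) against Arntl (CPM, log axis) in the 14 libraries, with circles for TAC, squares for sham and replicate numbers beside the points. The 6 sham libraries sit together between 4.15 and 6.25 CPM of Arntl, and the 8 TAC libraries lie along a falling line to both sides of them.

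Further pairs of Arntl were described in full. Arntl and Npas2 had r 0.91 (permutation p = 1e-05, adjusted 0.00011) and rho 0.93, with r 0.93 without the 2 farthest libraries, 0.93 within Rad KO, 0.93 within WT and 0.94 with group means removed. Arntl and Clock had r 0.85 (permutation p = 4e-05, adjusted 0.00026) and rho 0.80, with r 0.74 without the 2 farthest libraries, 0.94 within WT and 0.91 with group means removed. Within Rad KO, r was 0.71 and did not pass (adjusted exact permutation p = 0.12). Arntl and Per3 had r -0.88 (permutation p = 2e-05, adjusted 0.00018) and rho -0.88, with r -0.87 without the 2 farthest libraries, -0.90 within Rad KO and -0.88 within WT. Arntl and Nr1d1 had r -0.03 (permutation p = 0.914, adjusted 0.923) and rho -0.13, with r 0.06 within Rad KO and -0.23 within WT.

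**Figure D5:**
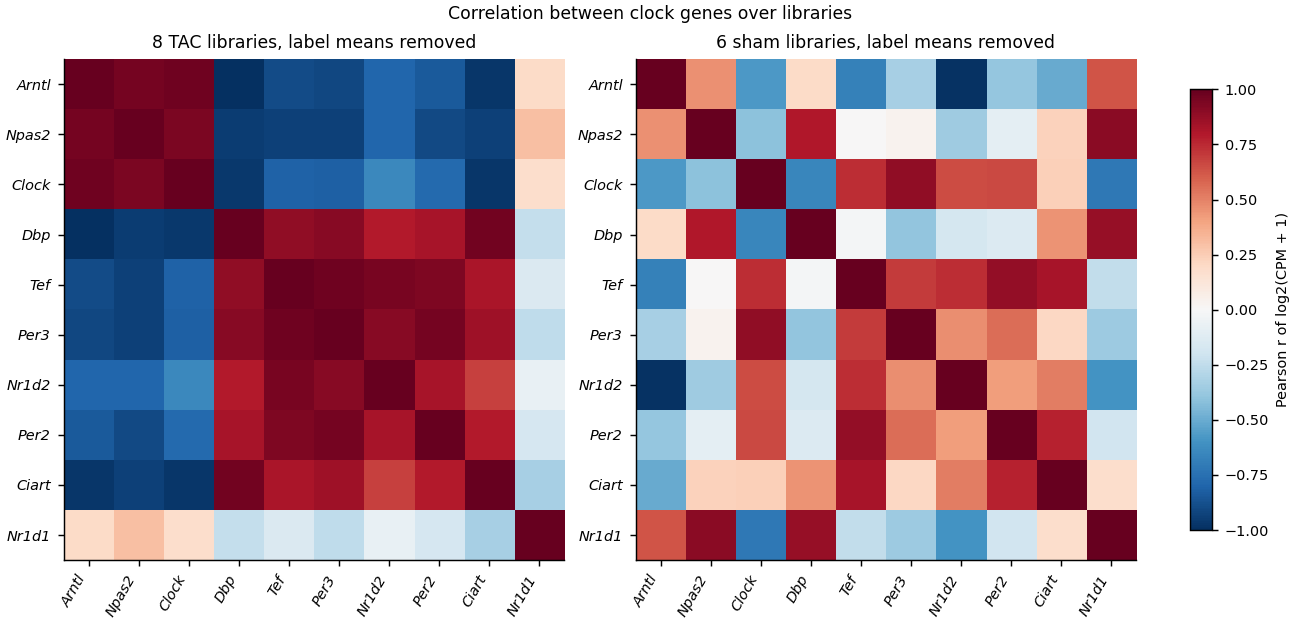
Pearson r of log2(CPM + 1) between each pair of members (colour, from -1 in blue to 1 in red) over the 8 TAC libraries, left, and the 6 sham libraries, right, after removing the mean of each label. In TAC the median r was 0.84 within an arm and -0.90 between arms, and in sham 0.31 and 0.03, with Nr1d1 pairs included.

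The effect of TAC was tested within each label, across all genes. As the hour of tissue collection is not given, a difference in hour between TAC and sham libraries was not tested. The 2 cannot be told apart in these contrasts. In libraries labelled Rad KO, 0 of the 10 members passed at an adjusted p under 0.05 (edgeR quasi-likelihood test, Benjamini-Hochberg over 14122 genes), where 1.69% of all genes did. DESeq2 also called 0 members, and at an unadjusted p under 0.05 edgeR had 1 member, Nr1d1, with 17.3% of all genes past that line. Median log2 fold change was -0.18 over the members and 0.01 over all genes, from -0.47 for Nr1d1 (SE 0.15, adjusted p = 0.14) to 0.43 for Arntl (SE 0.45, adjusted p = 0.671). In WT, 0 of 10 passed (3.09% of 14323 genes), DESeq2 called 0, and 3 members had an unadjusted p under 0.05 (17.4% of all genes). These were Npas2, with a log2 fold change of 1.16 (SE 0.47, adjusted p = 0.234), Nr1d1 with -0.22 (SE 0.089, adjusted p = 0.228) and Nr1d2 with -0.43 (SE 0.18, adjusted p = 0.258). The authors' deposited table gave an adjusted p of 0.0555 for Nr1d1 in Rad KO and 0.182 in WT, and its smallest adjusted p for a member in WT was 0.111, for Npas2.

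WT TAC 4 decided the WT result. This library had the least Arntl and the most Dbp of all, so it stood apart by the values of the tested genes themselves. Leaving it out narrows their spread, and the p-values without it describe only how far the result rests on it. Without WT TAC 4, 3 of 10 members passed (3.7% of all genes) by edgeR's quasi-likelihood test. Arntl was higher in WT TAC by a log2 fold change of 1.40 (SE 0.21, adjusted p = 0.0109), and Npas2 by 1.46 (SE 0.30, adjusted p = 0.033). Dbp was lower, with a log2 fold change of -1.18 (SE 0.14, adjusted p = 0.00713). With all 4 WT TAC libraries Arntl had 1.05 (SE 0.52, adjusted p = 0.335) and Dbp -0.30 (SE 0.49, adjusted p = 0.807). Ciart changed sign, with a log2 fold change of -0.57 without WT TAC 4 and 0.35 (SE 0.57) with it. WT TAC 4 was above WT sham in load markers, with 237 CPM of Nppb and 2221 CPM of Myh7, against at most 119 CPM of Nppb and 183 CPM of Myh7 in WT sham. Its Nppb was the lowest of all TAC libraries, against 451, 783 and 1130.3 CPM in WT TAC 1 to 3. Its Myh7 lay within their range of 1080 to 6897 CPM.

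Nr1d1 was the member that separated TAC from sham in both labels, with the hour of collection of these libraries not given. The ranges did not overlap and TAC was lower in Rad KO, where 7.73% of all genes were lower without overlap, and in WT, where 8.59% were. Over all TAC against all sham libraries 1.11% were. No other member had ranges of TAC and sham apart in either label. The average TAC effect over both labels, a contrast added after these values had been seen, called 1 of 10 members lower and 0 higher, with 11.1% of 14731 genes called by edgeR, and had 3 members at an unadjusted p under 0.05 (26.3% of genes). The called member was Nr1d1, which averaged 128 ± 23.2 CPM in Rad KO TAC (SD, n = 4), 178 ± 18.9 CPM in Rad KO sham (SD, n = 3), 139 ± 7.61 CPM in WT TAC (SD, n = 4) and 163 ± 1.08 CPM in WT sham (SD, n = 3). Its log2 fold change was -0.35 (SE 0.087, edgeR adjusted p = 0.0171, with 0.0028 to 0.254 over the alternatives). The call was lost without Rad KO sham 2, at -0.31 (adjusted p = 0.0514), and without the 3 sham libraries set apart by Esr1, at -0.31 (adjusted p = 0.254). Without WT TAC 4, the average effect called 5 of 10 members, with 11.9% of genes called: Arntl and Npas2 were higher in TAC, and Nr1d1, Nr1d2 and Dbp lower. As that library stood apart by members' own values, these calls describe only how far the result rests on it. Nr1d1 shares 1075 bases at its end with Thra on the opposite strand, and Thra had 71.9 to 108 CPM.

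No difference between the labels was detectable in the members. Between Rad KO and WT after TAC, 0 of 10 passed by edgeR (0.0136% of 14731 genes) or DESeq2, and 0 had an unadjusted edgeR p under 0.05 (7.76% of all genes) with 1 by DESeq2. The smallest edgeR p was that of Npas2, with a log2 fold change of -0.92 (SE 0.43, unadjusted p = 0.0502). Between Rad KO and WT in sham, 0 of 10 passed by edgeR (0% of genes) or DESeq2, and 0 had an unadjusted p under 0.05 by either (5.75% of all genes by edgeR). Tef was higher in every Rad KO sham than in every WT sham library, as 8.1% of all genes were, with a log2 fold change of 0.37 (SE 0.29, adjusted p = 0.871 by edgeR). The difference of the 2 TAC effects had 0 of 10 called by edgeR (0% of genes) or DESeq2 and 0 at an unadjusted p under 0.05 (5.11% of all genes by edgeR). For Arntl that difference was -0.63 (SE 0.77) and for Nr1d1 -0.25 (SE 0.17).

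Further genes of the pathway came from a list of 25 other clock genes, of which 23 were tested in Rad KO and 25 in WT. With TAC in Rad KO, 1 of 23 was called higher by edgeR and 0 lower (1.69% of all genes called). It was Tsc22d3, a glucocorticoid-induced leucine zipper gene with a daily rhythm, with 96.3, 92.2, 86.9 and 127 CPM in Rad KO TAC 1 to 4, against 64.8, 53.8 and 54.1 CPM in Rad KO sham 1 to 3. Its log2 fold change there was 0.81 (SE 0.14, edgeR adjusted p = 0.0232), and the call was lost without any 1 of the Rad KO sham libraries (log2 fold change 0.90, 0.77 and 0.77, adjusted p = 0.0817, 0.128 and 0.102 without sham 1, 2 and 3) and in 1 model of the 14 libraries (0.80, adjusted p = 0.0726). In WT 0 of 25 were called by edgeR (3.09% of all genes), with 2 at an unadjusted p under 0.05 (17.4% of all genes), and DESeq2 called 1. There Tsc22d3 had 54.0, 43.2, 77.2 and 98.5 CPM in TAC 1 to 4, against 64.1, 67.8 and 59.2 CPM in sham 1 to 3.

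Hlf, the third gene of the DBP and TEF family, had 9.23, 15.9, 15.7 and 24.1 CPM in Rad KO TAC 1 to 4, against 28.6, 37.6 and 26.4 CPM in Rad KO sham 1 to 3. Among WT libraries it had 18.8, 9.0, 7.89 and 31.5 CPM in TAC 1 to 4, against 31.6, 23.9 and 26.1 CPM in sham 1 to 3. All 4 Rad KO TAC libraries were below all 3 Rad KO sham libraries, as was the case for 7.73% of all genes. The log2 fold change of Hlf there was -0.93 (SE 0.25, edgeR adjusted p = 0.101), and DESeq2, or edgeR without Rad KO TAC 4, called it lower (adjusted p = 0.0132 and 0.0188). Rad KO TAC 4 had the most Hlf of the 4 Rad KO TAC libraries. The edgeR call without it therefore describes only how far the result rests on that library. Per1, a repressor that also responds quickly to hormones, had 39.6, 68.9, 42.7 and 75.3 CPM in Rad KO TAC 1 to 4. WT TAC 1 to 4 had 22.5, 23.6, 40.6 and 55.9 CPM. Its sham values were 49.9, 28.3 and 22.8 CPM in Rad KO and 39.9, 28.1 and 45 CPM in WT, so that Rad KO TAC 2 and 4 and WT TAC 4 were the 3 highest of all. Cry1, a repressor partner of PER, had 10.8 and 10.7 CPM in Rad KO TAC 2 and 4 and 12.0 CPM in WT TAC 4, against 5.95 to 9.12 CPM in the other TAC libraries and 6.52 to 10.8 CPM in sham. Cry2 had 26.4 to 58.4 CPM in TAC and 39.7 to 42.9 CPM in sham, and Usp2, a deubiquitinase gene with a strong daily rhythm, had 74.9 to 153 CPM in TAC and 107 to 169 CPM in sham. Nfil3, the D-box repressor, had 7.34 to 13.1 CPM in TAC and 5.81 to 11.2 CPM in sham, and Bhlhe41, an E-box repressor, had 25.5 to 55.7 CPM in TAC and 30.5 to 40.4 CPM in sham.

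Genes outside the list were ranked by likeness to Arntl and to Dbp, as Pearson r of log2(CPM + 1) over the 14 libraries, among 9851 protein-coding genes with a mean of at least 5 CPM. Nearest to Arntl were Leo1 (0.90), Spon2 (0.90), Trp53i11 (0.86), Skil (0.85) and Gtf3c5 (0.84), and most opposed were Stk35 (-0.91), Mid1ip1 (-0.89), Tcap (-0.88), Med25 (-0.88) and Art5 (-0.86). Nearest to Dbp were Stk35 (0.94), Mid1ip1 (0.92), Tcap (0.92), Slc25a3 (0.86) and Med25 (0.86), and most opposed were Skil (-0.91), Sh3d19 (-0.88), Arsb (-0.88), Spon2 (-0.87) and Trp53i11 (-0.86). Tcap encodes telethonin, a cap of titin at the sarcomere's Z-disc, and ranged from 1204 to 2789.6 CPM. Spon2 encodes a secreted matrix protein and ranged from 0.593 to 16.3 CPM. Stk35, Mid1ip1, Tcap and Med25 stood in both lists with opposite signs, as did Skil, Spon2 and Trp53i11. These ranks are over the same 14 libraries and 1 order of libraries, and carry no test.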

How the data were processed

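PolyA-enriched RNA of 14 mouse ventricle libraries was read from 2 deposited tables, 1 for each genotype label with its TAC and sham libraries. Per the file headers, the authors deposited read counts by gene and library, and these were the input of every test. The deposited FPKM values, counts per length and depth per the file headers, served only for levels between genes. The deposited normalized signal of each library, counts over a size factor set within each table, was not used beyond a check. The authors' deposited tables also hold a log2 fold change, a p-value and an adjusted p-value of TAC over sham. The submitters' processing notes name HISAT2, DESeq2, edgeR and mm10. The sources used here give neither their versions and roles nor the read counter, its use of strand or the annotation. All per-sample columns matched a sample (0 did not).

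Groups followed the sample titles. TAC effects were fitted within a label (7 libraries), and the other contrasts in 1 model of 4 groups over 14 libraries, with edgeR 4.0.16 in R 4.3.3 (TMM, filterByExpr at min.count 10 and min.total.count 15, quasi-likelihood test, Benjamini-Hochberg adjustment over all genes tested, threshold 0.05). CPM used TMM factors over the 14 libraries, and log2 values have a pseudocount of 1 CPM. The within-group SD is that of log2(CPM + 1) after removal of group means. Correlations used two-sided permutation tests, exact for 7 libraries. On simulated counts, the genes to change were drawn at random from all genes tested. There edgeR recovered 64% of 2-fold and 93% of 4-fold changes for TAC in Rad KO (14122 genes). For TAC in WT it recovered 72% and 88% (14323 genes). These shares do not hold for the members, of which 7 were in the top 10% of within-group spread. Alternatives were DESeq2 1.42.0, edgeR with the size factors of DESeq2, all genes unfiltered, a block for replicate number, 1 model of 14 libraries, other pseudocounts (0.1 and 5), leaving out each library, and leaving out the 3 sham libraries set apart by Esr1.

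The members, the list of 25 other clock genes and the tests were chosen with earlier results of these data known. Named genes were all 10 members, any of the 25 called in a contrast (1 is not reported here), 8 of the 25 by role, and the 5 genes most like and most unlike Arntl and Dbp. Promoter windows came from RefSeq (GRCm38.p6), and gene overlaps from GENCODE M21. Precision rests on 3 or 4 libraries a group.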

Additional observations from a re-analysis of the deposited data

Results flagged for a closer look

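2 values of 20 tested stood apart from their group by Dixon's test, 1 member and 1 group of 4 TAC libraries at a time, where chance gives about 1 in 20. Members vary together between libraries, so the 20 tests are not independent and that share is only a guide. The gaps below are those of CPM and not of log2 values. Both values that stood apart belong to WT TAC 4. Dbp there was 215 CPM, against 48.5, 41.9 and 60.6 CPM in WT TAC 1 to 3, with a gap to its neighbour of 0.892 of the group's range. Ciart there was 16.3 CPM, against 2.82, 3.11 and 4.72 CPM in WT TAC 1 to 3, with a gap of 0.858 of the range. In Arntl the same library was the lowest of the 14, at 1.71 CPM. In Rad KO TAC the libraries fell into pairs in these genes, 1 and 3 against 2 and 4, and no value stood apart by this test.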

How the results depend on the processing

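The direction of most values held. Of the values of single genes under alternatives other than leaving out 1 library, 165 kept direction and side of the threshold, 12 passed it newly, 4 lost it and 6 changed sign. The count of members called in either label was 0 under each of these except the block, and 7 members stayed the number in the top 10% of spread under other pseudocounts and DESeq2 size factors (6 to 7 leaving out each library).

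The replicate number was tried as a block. Over all genes tested, deviations of same-numbered TAC and sham libraries correlated at 0.05, 0.03 and 0.09 in Rad KO and 0.08, 0.17 and -0.05 in WT. The labels do not say what the number marks. A shared day, batch or hour that moves few genes would not show in these values. The replicate block called 431 genes for TAC in Rad KO and 1 gene for Rad KO against WT in TAC. For TAC in WT it called 5 members, with 540 of 14323 genes tested called. For the average effect it called 5 members, with 1897 of 14731 genes tested called. Ciart turned to -0.52 in WT and -0.39 on average. WT TAC 4 and Rad KO TAC 4 have no sham partner. The block therefore takes them out of the TAC effect in their label and out of the average effect. As WT TAC 4 stood apart by members' own values, the member calls of the block describe only how far the result rests on such libraries.

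For genes called, 239 for TAC in Rad KO became 753 with DESeq2, 571 without a filter and 7 without the 3 sham libraries set apart by Esr1 (7 to 536 leaving out each library, lowest without Rad KO sham 2 and highest without Rad KO TAC 4). For TAC in WT, 442 became 933, 782 and 0 (15 to 614, lowest without WT sham 3). For Rad KO against WT, 2 became 96, 21 and 16 in TAC (1 to 32), 0 became 15 with DESeq2 and 2 without the 3 libraries in sham (0 to 1), and 0 became 8 with DESeq2 for the difference of effects (0 to 4). The average effect had 1637, and 144 without the 3 libraries (972 to 2033), and called 0 members without them (0 to 5 leaving out each library). In WT, members called ran from 0 to 3. Without the 3 libraries, Ciart was 0.12 in Rad KO, -0.21 in WT and -0.054 on average, and Clock -0.015 on average; the 1 WT sham library left is assumed to vary like the others.

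Leaving out each library, the log2 fold change changed sign for Arntl (-0.058 to 0.68), Ciart (-0.38 to 0.23) and Per2 (-0.33 to 0.36) in Rad KO, for Ciart (-0.57 to 0.76), Per2 (-0.36 to 0.25) and Tef (-0.35 to 0.15) in WT, and for Ciart (-0.29 to 0.37), Clock (-0.042 to 0.093) and Per2 (-0.20 to 0.15) on average.

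Of the 45 pairs, the 34 that passed over all libraries (29 to 34 leaving out each library) became 21 within Rad KO and 20 within WT. Arntl with Clock was 0.71 within Rad KO. Arntl with Nr1d1 was -0.03 over all libraries (-0.31 to 0.024 leaving out each library), 0.21 with group means removed and 0.062 within Rad KO. Within the 6 sham libraries Arntl had r -0.58 with Clock, 0.46 with Npas2, 0.19 with Dbp and -0.33 with Per3, given with no test. The causes of these changes were not tested. With 3 or 4 libraries a group and 18 to 302 reads of Npas2 or Arntl in a library, small changes of these 2 genes were not detectable.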

Other observations

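Of the 25 other clock genes, 3 more were read by library after their values had been seen. Wee1, which encodes a kinase that holds back mitosis and is a clock output in mouse liver, had 12.5, 41.0, 12.7 and 29.4 CPM in Rad KO TAC 1 to 4, against 22.5, 18.6 and 17.6 CPM in Rad KO sham 1 to 3. In WT it had 12.3, 8.25, 12.1 and 25.9 CPM in TAC 1 to 4, against 14.6, 16.1 and 16.5 CPM in sham 1 to 3. The 3 TAC libraries low in Arntl were the 3 highest of all 14 in Wee1, and the 5 high in Arntl were the 5 lowest. Nampt, which encodes the rate-limiting enzyme of NAD salvage, had 172, 219, 175 and 193 CPM in Rad KO TAC 1 to 4. WT TAC 1 to 4 had 180.1, 106, 116 and 199 CPM. Its sham values were 241, 189.8 and 174 CPM in Rad KO and 164, 176 and 173 CPM in WT. Klf15, which encodes a Krüppel-like factor that represses hypertrophic growth in the mouse heart, had 42.1, 64.1, 48.4 and 73.7 CPM in Rad KO TAC 1 to 4. WT TAC 1 to 4 had 49.6, 30.8, 35.9 and 49.8 CPM. Its sham values were 83.3, 55.9 and 54.7 CPM in Rad KO and 64.9, 59.5 and 53.9 CPM in WT. All 4 WT TAC libraries were thus below all 3 WT sham libraries, as was the case for 8.59% of all genes. Klf15 was not called there, with a log2 fold change of -0.52 (SE 0.17, edgeR adjusted p = 0.139).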
